A study of Mus musculus with 2 samples.

Results

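Mir221 and Mir222 are neighbouring microRNA (miRNA) genes of the X chromosome whose main products carry the same seed, the short stretch at the 5′ end through which a miRNA pairs with its target messenger RNAs. They were found by their gene identifiers in the GENCODE M21 annotation, and make up 2 of the 2202 miRNA genes counted. The pair was chosen by the large difference in the count of Mir222 between the 2 libraries, so the values below that compare the libraries describe that choice and carry no test.

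The libraries hold small RNA under 30 nt from whole adrenal glands of B6CASTF1/J males, crosses of a laboratory strain with a castaneus-derived one, at an age of 2 months. Replicate 1 came from animal 3 and replicate 2 from animal 4, and both belong to 1 group with no treatment or second tissue. The gland joins a cortex that makes steroids to a medulla of chromaffin cells, so a level here is an average over cortex, medulla, vessels and blood, in which fewer cells of a type and less of a miRNA per cell cannot be told apart. Animal 3 had 5752428 reads counted on the strand of a miRNA gene and animal 4 had 3333149. Levels are given as CPM, the share of these reads scaled to 1e6.

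A miRNA gene is transcribed as a long precursor that is cut to a hairpin and then to a mature strand of about the length sequenced here. miR-221 and miR-222 are known for holding down Kit, the receptor for stem cell factor, and Cdkn1b, which encodes the cell cycle inhibitor p27. In human erythroid progenitors they decline as the cells mature, in vascular smooth muscle they are linked to growth, and in the rat chromaffin-derived cell line PC12 they are induced by nerve growth factor. The messenger RNAs of Kit and Cdkn1b were not measured here.

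The mature sequences show what the genes share and where they part. They are given 5′ to 3′ from RefSeq (GRCm38.p6) with the seed, bases 2 to 8, in capitals; miR-1928, from chromosome 1, is shown because it was the remaining miRNA of the RefSeq table with this seed, and miR-221-5p because it comes from the other arm of the Mir221 hairpin.
miR-221-3p: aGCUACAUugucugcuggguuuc
miR-222-3p: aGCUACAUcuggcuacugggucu
miR-1928: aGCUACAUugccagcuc
miR-221-5p: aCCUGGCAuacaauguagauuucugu

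miR-221-3p and miR-222-3p were both 23 bases long and began with the same 8 bases. Over all 23 positions they had the same base at 11, so most positions after the seed differed. miR-1928 shared its first 10 bases with miR-221-3p and its first 8 with miR-222-3p. The seed of miR-221-5p was found in no other of the 1738 mature sequences of the table.

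Mir221 occupied chrX:19146294-19146388 and Mir222 chrX:19146893-19146971 on the minus strand of mm10, with 504 bases between them. On that strand Mir222 is the upstream gene. Neither overlapped another gene of GENCODE M21 on either strand. The closest annotated gene was Gm14636, a processed transcript of the same strand that ended 10009 bases upstream of Mir222. The closest annotated miRNA genes on either side, Gm22464 at 3438448 bases and Gm24824 at 1676765 bases, had 0 counts in both libraries. Both hairpins are shown because the counts were made over their whole length, with the mature strands of the RefSeq table in capitals. That table lists no strand from the other arm of Mir222, which does not show that none is made.
Mir221: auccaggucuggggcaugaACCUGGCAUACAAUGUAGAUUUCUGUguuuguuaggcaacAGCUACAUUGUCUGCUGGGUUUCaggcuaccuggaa
Mir222: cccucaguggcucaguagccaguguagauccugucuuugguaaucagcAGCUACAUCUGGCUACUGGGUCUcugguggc

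The Mir221 hairpin had 95 bases and a GC content of 47.4%, and the Mir222 hairpin had 79 bases and a GC content of 54.4%. They lay on either side of the median of the 1005 RefSeq hairpins, 51.7%. The longest stretch the hairpins shared with each other was 9 bases, and neither shared more than 12 bases with any of 1004 other hairpins. Reads placed at more than 1 locus were left out of the counts at genes, but these hairpins had no close copy among the annotated ones; the rest of the genome was not searched. The counts do not separate the arms, so a count of either gene is the sum over both arms of its hairpin.

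Seed matches were found in the 3′ untranslated regions of both messenger RNAs for which the pair is best known. The motif searched was ATGTAGC, the reverse complement of bases 2 to 8 in DNA letters, on the transcript strand alone. The longest annotated region of Kit, 2177 bases in transcript Kit-204, held 2 matches, with their first bases at positions 447 and 1978 after the stop codon. That of Cdkn1b, 3439 bases in Cdkn1b-202, held 1, with its first base at position 2357. The sites are shown with the match in capitals because these letters are what the seed would face. The Kit sites lie at chr5:75654977-75655006 and chr5:75656508-75656537, and the Cdkn1b site at chr6:134924416-134924445, all on the plus strand of GRCm38.
Kit, upstream site: aatgatgggagatatATGTAGCaagactag
Kit, downstream site: tttgtaaatattgaaATGTAGCaataatgt
Cdkn1b: ctctaaaagcattggATGTAGCattgcgca

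An A followed the match at all 3 sites, but how often it does so in other regions was not counted. The motif was present in 9.42% of the 20984 longest 3′ untranslated regions of protein-coding genes. It was present in 15.2% of regions within 20% of the length of that of Kit and in 22.3% of regions within 20% of the length of that of Cdkn1b. A match is a description of the sequence and does not show that a site is used.

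Mir221 was the more abundant gene of the pair in both animals. It had 4384 counts in animal 3 and 2940 in animal 4, which is 762 CPM (95% Clopper-Pearson interval 740 to 785) and 882 CPM (850 to 915). Its mean was 822 ± 84.8 CPM (SD, n = 2), and it ranked 83 among the miRNA genes in animal 3 and 84 in animal 4. Mir222 had 464 counts in animal 3 and 1089 in animal 4, which is 80.7 CPM (73.5 to 88.3) and 327 CPM (308 to 347). Its mean was 204 ± 174 CPM (SD, n = 2), and it ranked 186 in animal 3 and 130 in animal 4. Mir221 thus held nearly the same place in both animals, while Mir222 stood lower in animal 3. Mir222 lay above the median of the 389 genes that averaged 10 counts or more in both animals, 65.5 CPM in animal 3 against 86.4 CPM in animal 4. The intervals cover counting error of reads taken as independent, which reads without molecular identifiers are not.

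**Figure D1:**
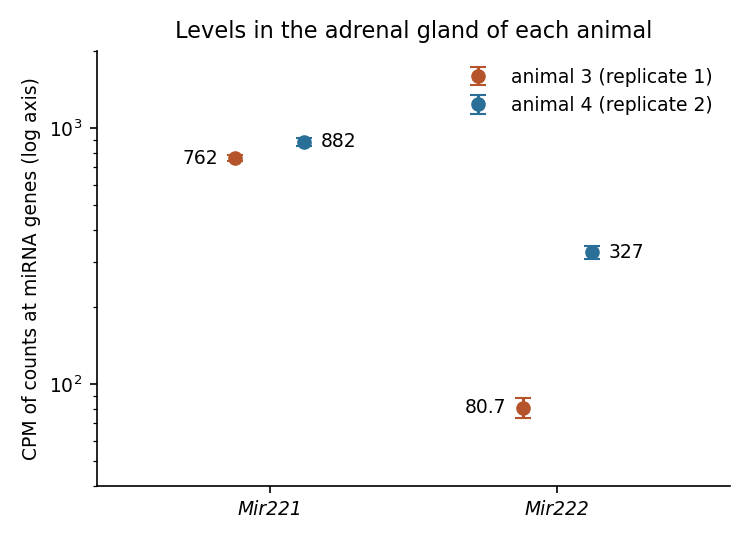
Levels of Mir221 and Mir222 in each library, in CPM of the counts at miRNA genes on a log axis; points are single libraries and bars are 95% Clopper-Pearson intervals of counting error. Mir221 sits at 762 and 882 CPM, and Mir222 at 80.7 and 327 CPM, in animals 3 and 4.

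No read was counted on the strand opposite to either gene in either library, so their counts were the same with and without regard to strand. The pair together had 843 CPM in animal 3, against 1209 CPM in animal 4, a mean of 1026 ± 259 CPM (SD, n = 2). Mir1928, the remaining gene with this seed in the RefSeq table, had 0 counts in both libraries. Such a count allows up to 0.522 CPM in animal 3 against 0.900 CPM in animal 4. Of the genes with a product of this seed, Mir221 and Mir222 were thus the ones with counts. Since the counts join both arms, they do not say how many reads carried the seed.

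Mir222 held a smaller share of the pair in animal 3. It made up 9.57% of the pair's counts in animal 3 (95% Clopper-Pearson interval 8.76 to 10.4) and 27.0% in animal 4 (25.7 to 28.4). The counts of Mir221 exceeded those of Mir222 9.45-fold in animal 3 and 2.70-fold in animal 4. On the log2 scale, Mir222 over Mir221 was -3.24 in animal 3 with a counting error of 0.07 (SE), and -1.43 in animal 4 with a counting error of 0.05 (SE). These ratios need no scaling between libraries, and the order of the genes was the same in both animals. Both main strands are 23 bases long, but how well each is captured in a library was not measured, so a ratio between the genes is one of counts.

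After scaling by the trimmed mean of M values (TMM), the log2 ratio of animal 3 over animal 4 was -1.82 for Mir222, with a counting error of 0.08 (SE), and -0.01 for Mir221, with a counting error of 0.03 (SE). Mir222 was thus 3.53-fold higher in animal 4. Of the 2 genes, 1 lay past 2-fold, where 14.4% of the 389 genes lay past it in either direction and 6.17% lay lower in animal 3; Mir222 was chosen for this value. The median log2 ratio of the 389 genes was 0.01, so Mir221 stood close to the middle of the profile. Among these genes 32 (8.23%) were higher in animal 3 past 2-fold and 24 (6.17%) lower. By total counts, which move every log2 ratio down by 0.20, 74 (19%) lay past 2-fold, 26 (6.68%) of them higher and 48 (12.3%) lower. With 1 library on each side there is no replicate check of any ratio.

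Mir222 had the fourth-lowest log2 ratio of the 389 genes. Below it stood Gm26117 (-4.86), an annotated miRNA gene of chromosome 15, Mir206 (-2.05), a miRNA of skeletal muscle, and Mir223 (-1.92), a miRNA of myeloid cells that is also X-linked. Next above it stood Mir6538 (-1.71), Mir487b (-1.64) of the imprinted cluster on chromosome 12, Mir5126 (-1.61), Mir147 (-1.50) and Gm22133 (-1.46). Mir5126, Mir147 and Gm22133 had 33 counts or fewer in each library, and their counting errors of 0.43, 0.51 and 0.62 were several times that of Mir222. Among the genes next to it in this order, Mir206 and Mir487b were counted at depths like that of Mir222 or above it in both animals. Gm26117 had fewer counts than Mir222 in animal 3, at 96, and more in animal 4, at 1861.

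The genes with the most similar pair of levels were taken as those at the smallest distance in log2(CPM + 0.5) over both libraries. Nearest to Mir221 was Mir181d at a distance of 0.03, with 763 CPM in animal 3 against 866 CPM in animal 4. Mir540 (distance 0.14), Mir150 (0.15), Mir195a (0.16) and Mir671 (0.18) followed, each on another chromosome than the pair. Nearest to Mir222 was Mir206 at 0.25, with 81.7 CPM in animal 3 against 389 CPM in animal 4. Mir24-2 (0.51), Mir101a (0.58), Mir329 (0.82) and mmu-mir-3535 (0.99) were farther away. All 5 genes nearest to Mir221 were closer to it than Mir206 was to Mir222. Mir222 was chosen for the difference between these same 2 levels, so this contrast is no separate result. With 2 libraries such a distance is a description of 2 levels, not a pattern of expression.

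**Figure D2:**
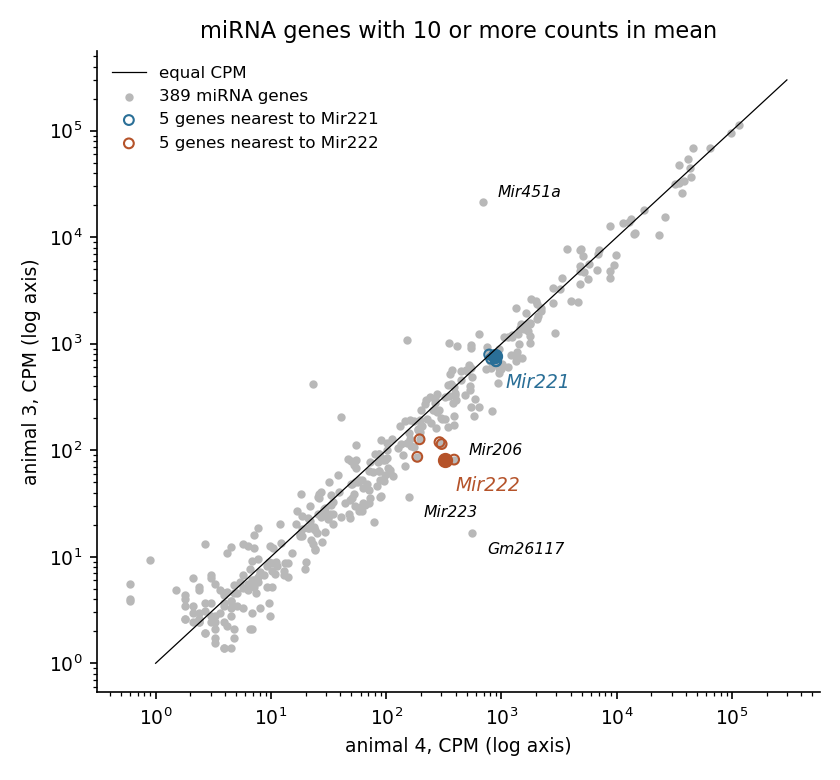
CPM of the 389 genes that averaged 10 counts or more, animal 3 against animal 4 on log axes, with the line of equal CPM; filled points are Mir221 and Mir222, open circles the 5 genes nearest to each. Mir221 lies in the body of the cloud at 762 and 882 CPM, and Mir222 lies below it at 80.7 and 327 CPM.

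Adjacent miRNA genes can be cut from 1 precursor, so the pair was set beside all other pairs of consecutive miRNA genes on the same strand, at most 10 kb apart and each with 10 or more counts in mean. There were 95 such pairs in all. An uneven level was common: the median absolute log2 ratio between the genes of a pair was 2.56, and 41 pairs in animal 3 and 60 pairs in animal 4 were more uneven than Mir222 and Mir221. The log2 ratio of Mir222 over Mir221 moved by -1.81 in animal 3 relative to animal 4, with a counting error of 0.09 (SE), a 3.50-fold change, where the median absolute change over the pairs was 0.46. The change passed 2-fold in 16 of the 95 pairs, or 16.8%, and that of Mir222 and Mir221 was the fourth largest. Since Mir222 was chosen for the difference in its level, this place in the order is a description.

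The 3 pairs with larger changes were of different kinds. Mir15a over Mir16-1, genes linked to restraint of the cell cycle, had a log2 ratio of 0.03 in animal 3 and 2.17 in animal 4; Mir16-1 shares 18 bases or more with another hairpin, and reads placed at more than 1 locus were not counted. Mir144 over Mir451a, the erythroid pair, had -4.32 in animal 3 and -2.21 in animal 4. Mir183 over Mir96, miRNAs known from sensory cells, had 4.02 in animal 3 and 2.17 in animal 4, though Mir96 had 66 counts at most. The fifth was Mir487b over Mir539, with 1.87 in animal 3 and 3.26 in animal 4.

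In 24 of the 95 pairs the genes shared a seed. Here this means that a product of the upstream gene, from either arm, had the seed of a product of the downstream gene. Such a seed need not be that of the main products. Of these 24 pairs 6 changed past 2-fold, where 16 of all 95 pairs (16.8%) did. The median absolute change of the 24 was 0.41, against 0.46 over the 95. In 7 of the 24, the pair of Mir222 and Mir221 among them, neither hairpin shared 18 bases or more with another in the RefSeq table. The other 6 pairs moved by less, but Mir222 was chosen for the difference in its level, so this order is a description. Mir212 over Mir132, linked to nerve and steroid-producing cells, changed by -1.22, Mir200b over Mir200a, of epithelial cells, by -0.86 with a counting error of 0.68, and Mir497 over Mir195a by -0.74. Mir34b over Mir34c, miRNAs of the p53 response, changed by -0.28, Mir106b over Mir93, of the growth-linked miR-17 family, by -0.27, and Mir501 over Mir500, also X-linked, by 0.18. Of the 50 pairs whose hairpins are both in the table without such a shared stretch, 9 changed past 2-fold, against 16.8% of the 95. The change of Mir222 and Mir221 was the third largest of the 50, which again describes the choice of Mir222.

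**Figure D3:**
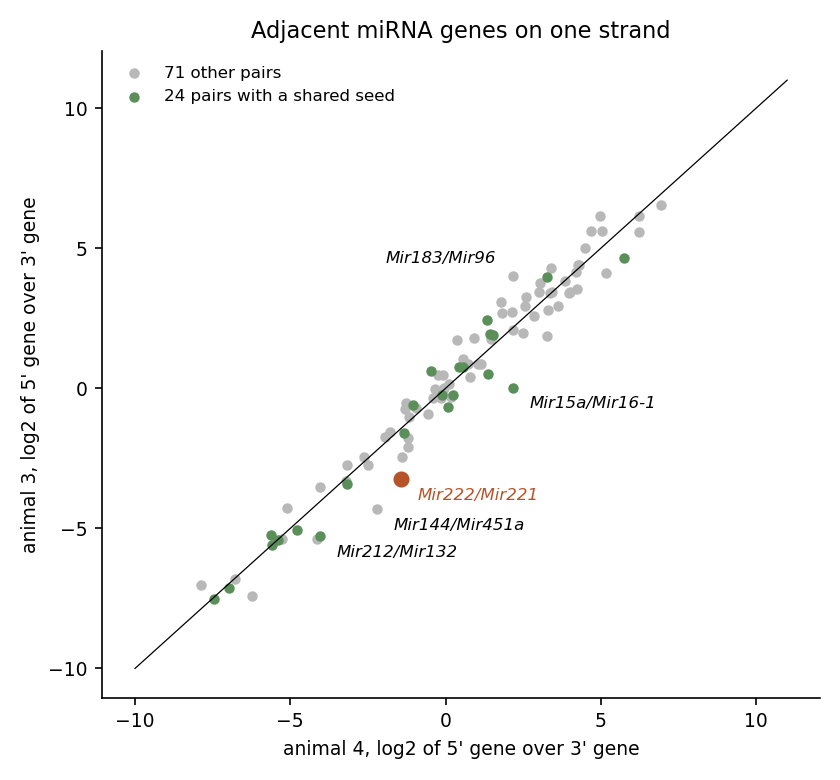
Log2 ratio of the upstream (5′) over the downstream (3′) gene of 95 adjacent miRNA pairs, animal 3 against animal 4. The line marks equal ratios. Green points share a seed between products of either arm, and Mir222/Mir221 is the large point. It lies below the line, at -3.24 in animal 3 and -1.43 in animal 4.

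The X chromosome carries a single copy in males, and 142 of its miRNA genes were in the files. Of these 92 had no count, where 1452 of all 2202 miRNA genes had none. Of the 140 other than the pair, 33 averaged 10 counts or more, where 389 of the 2202 did. Their median log2 ratio was 0.07, against 0.01 over all 389 genes. Past 2-fold, 3 were higher in animal 3 and 2 lower, a share near that of all genes, 14.4%. By total counts 1 was higher and 3 lower, so the balance of directions turned with the scaling. The higher ones were Mir452 (1.21), Mir325 (1.16) and Mir1198 (1.03), and the lower ones Mir223 (-1.92) and Mir547 (-1.44). Mir452, Mir325 and Mir547 had 72 counts or fewer in each library. The X-linked genes with the most counts all stayed within 2-fold: Mir652 had a log2 ratio of 0.32, Mir322, linked to cell cycle exit in muscle cells, -0.18, Mir98 and Mirlet7f-2 of the let-7 family 0.17 and 0.05, Mir676 0.72 and Mir361 0.41. The summed level of X-linked genes other than the pair was 44940 CPM in animal 3 against 47579 CPM in animal 4.

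**Figure D4:**
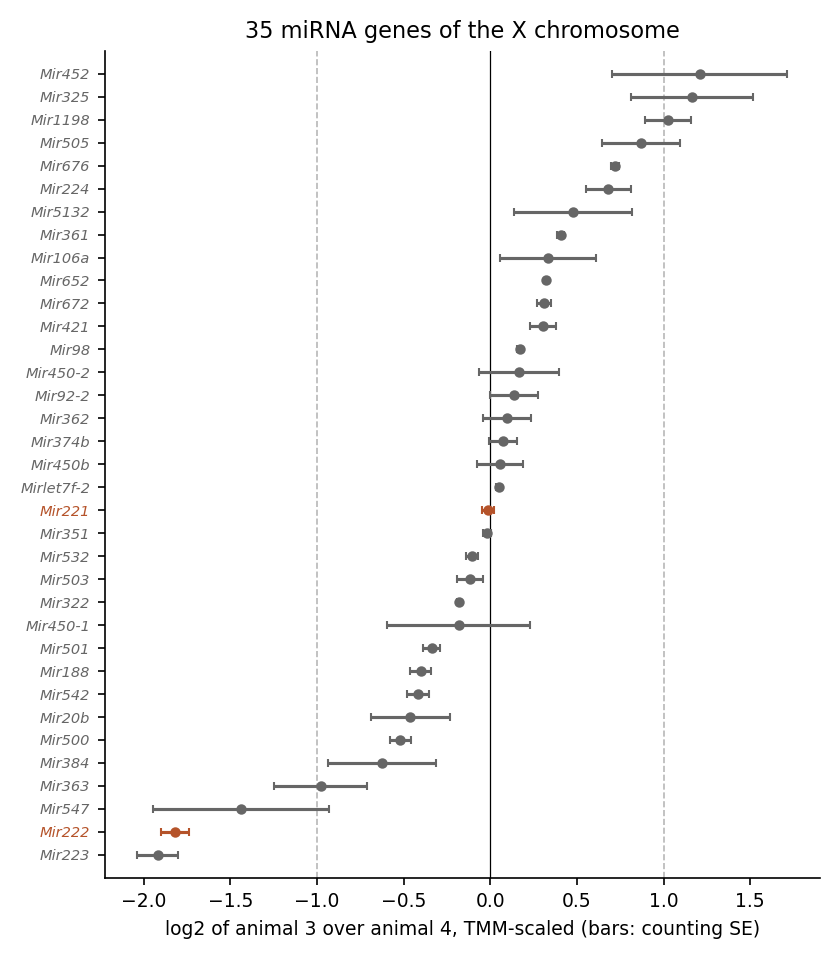
Log2 ratio of animal 3 over animal 4 after TMM scaling for the 35 X-linked genes that averaged 10 counts or more; bars are counting SE and dashed lines mark 2-fold. Mir222 (-1.82) lies next to Mir223 (-1.92) at the low end, and Mir221 (-0.01) lies in the middle.

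Other miRNAs reported to act on KIT or CDKN1B in human cells were also present in the gland. All 11 genes listed passed 10 counts in mean, and 1 lay past 2-fold, lower in animal 3, where 6.17% of the 389 genes lay lower past 2-fold. Their median log2 ratio was -0.04, against 0.01 over the 389 genes. Of those linked to KIT, Mir34a led with 1161 CPM in animal 3 against 1152 CPM in animal 4. Mir137 had 405 CPM in animal 3, against 530 CPM in animal 4, Mir193b had 278 and 266 CPM, and Mir494 had 65.5 and 107 CPM in the same order. Mir34a was thus above Mir221 in both animals, and the other 3 were below it.

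Of those linked to CDKN1B, Mir148a had 208 CPM in animal 3, against 387 CPM in animal 4, with a log2 ratio of -0.70. Mir196a-2, from a Hox cluster, had 191 CPM in animal 3, against 198 CPM in animal 4. Mir24-2 was the gene past 2-fold, with 114 CPM in animal 3 against 303 CPM in animal 4 (log2 ratio -1.21). Mir24-1, which gives the same miR-24 strand from chromosome 13, had 52.2 CPM in animal 3, against 61.5 CPM in animal 4 (-0.04). Mir181a-1 had 47.8 CPM in animal 3, against 67.8 CPM in animal 4. The remaining genes had the fewest counts, Mir196a-1 with 91 counts or fewer and Mir181a-2 with 41 counts or fewer in both libraries. All of these but Mir148a share 18 bases or more with another hairpin, so reads placed at more than 1 locus are missing from their counts.

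The summed level of red blood cell miRNAs differed more between the same libraries than that of white blood cell miRNAs. Of the 4 red blood cell genes listed, 3 were matched in the files. Mir451a, Mir144 and Mir486 were all past 2-fold higher in animal 3, where 8.23% of the 389 genes were. The list summed to 22813 CPM in animal 3 against 901 CPM in animal 4. Most of each sum was Mir451a, with 21615 CPM in animal 3 against 695 CPM in animal 4. Of 6 white blood cell genes 5 passed 10 counts; the list summed to 2956 CPM in animal 3 against 3251 CPM in animal 4. Mir223 had 36.7 CPM in animal 3, against 159 CPM in animal 4, while Mir150 (-0.19), Mir142 (0.20), Mir155 (0.16) and Mir146 (0.24) stayed within 2-fold on the log2 scale. Mir222, chosen for its difference between the libraries, had a negative log2 ratio, as had Mir223 and Mir150. Of the 389 genes 190 had a negative ratio. The red blood cell genes had positive ones, as had Mir142, Mir155 and Mir146 of the white blood cell list. The part of blood in the difference of Mir222 was not tested.

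The vascular lists cover cell types in which the pair is known to act, and their summed levels lay closer between the animals than that of red blood cells. Mir126a, the leading endothelial miRNA, had 69154 CPM in animal 3, against 65133 CPM in animal 4 (log2 ratio 0.28), and Mir126b had 8 counts at most. Of 7 smooth muscle and mesenchymal genes 5 passed 10 counts and 0 lay past 2-fold, where 14.4% of the 389 genes did, so the count says little about so short a list. The list summed to 33519 CPM in animal 3 against 34842 CPM in animal 4. Its members ranged from -0.84 for Mir214 to 0.96 for Mir199b, with Mir143 at 0.19, Mir145a at -0.34 and Mir199a-2 at 0.01.

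Of the neuroendocrine miRNAs, which the medulla of a gland so labelled should hold, Mir375 made up most of the summed level. It had 68780 CPM in animal 3 against 46236 CPM in animal 4. Mir7b had 3666 CPM in animal 3 against 4819 CPM in animal 4, and Mir7-1 and Mir7-2 were below Mir221 in both animals. Mir375, Mir7b, Mir7-1 and Mir7-2 summed to 72802 CPM in animal 3 against 51447 CPM in animal 4, with log2 ratios of 0.77, -0.20, -0.08 and 0.41. Of the 7 neuronal genes Mir137 passed the filter, at -0.19. The genes of Mir124a and the genes Mir9-1 and Mir9-2 had 0 counts in both libraries, and Mir9-3 had 3 counts in animal 3 and 0 in animal 4. Copied genes of these lists lack reads placed at more than 1 locus. No marker list other than that of red blood cells had all of its measured members past 2-fold.

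**Figure D5:**
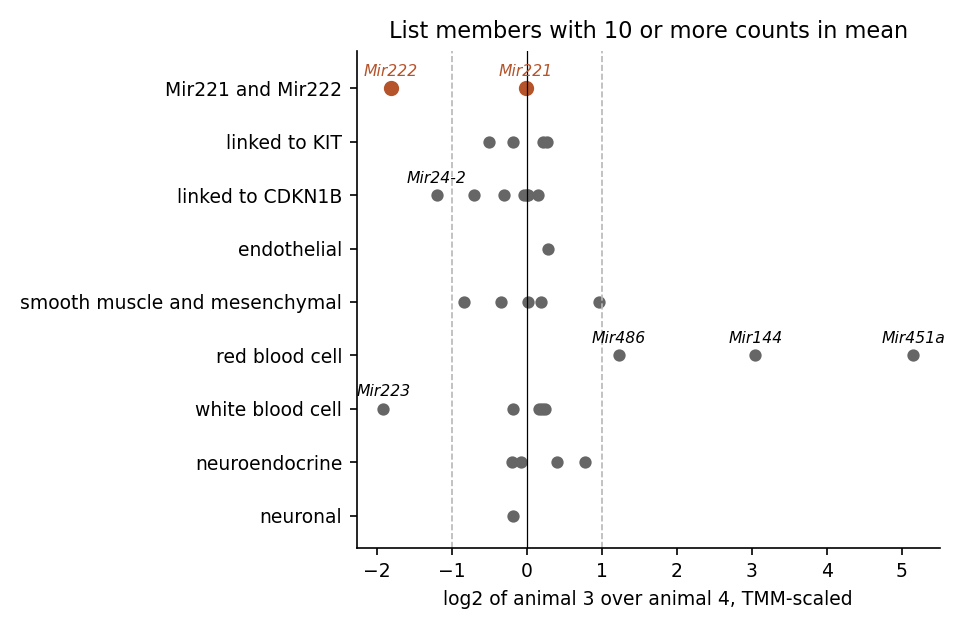
Log2 ratio of animal 3 over animal 4 after TMM scaling for Mir221 and Mir222 and for list members with 10 or more counts in mean; dashed lines mark 2-fold, and genes past it are named. Mir222 (-1.82) lies near Mir223 (-1.92), the red blood cell genes lie at 1.23 to 5.16, and Mir24-2 lies at -1.21.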

How the data were processed

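The authors deposited counts, raw reads at each miRNA gene of GENCODE M21 on mm10, per the files that describe each library. The aligner was not given in the sources used here. Of the 3 count columns, the one for the gene's own strand was used. The 4 lines that name no gene held 66.2% of reads in replicate 1 (animal 3) and 69.0% in replicate 2 (animal 4), among them reads aligned to several places (26.2% and 28.8%), and were left out of totals.

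CPM, TMM scaling (edgeR 4.0.16, R 4.3.3), log2 ratios with 0.5 counts added and their counting SE were computed from the deposited counts, and ratios are given for genes with 10 or more counts in mean. DESeq2 1.42.0 size factors served as an alternative. No p-value was computed, since the series is 1 group of 2 libraries, which the labels number as separate males and biological replicates, though with the same donor identifier. The members and lists were chosen with earlier results of these data known. Named genes were the members, their seed family, list members past the filter, the nearest genes by level and by ratio, the adjacent pairs that changed most and the X-linked neighbours; the pairs of shared seed and the abundant X-linked genes were picked after their values were seen. The computation of scaled log2 ratios was checked on simulated counts with counting error alone, which says nothing of variation between animals. Seeds and hairpins came from RefSeq (GRCm38.p6), which covered 330 of the 389 genes. Work was done in Python 3.11.15 with pandas 2.3.3, NumPy 2.4.6, matplotlib 3.10.9 and SciPy 1.17.1.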

Additional observations from a re-analysis of the deposited data

How the results depend on the processing

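The level of Mir221 depended on the denominator more than on the animal. Its mean CPM was 822, and it became 976 without regard to strand, 266 when scaled to 1e6 of all reads and 1949 with the 10 most abundant genes left out of the total. That of Mir222 was 204, and it became 64.3 on the scale of all reads and 473 with those 10 genes left out. With 1 library left out, Mir221 lay between 762 and 882 CPM, Mir222 between 80.7 and 327 CPM, and the log2 ratio of Mir222 over Mir221 between -3.24 and -1.43. Between libraries, the log2 ratio of Mir221 was -0.21 by total counts and -0.085 by all reads, and that of Mir222 was -2.02 by total counts; DESeq2 size factors, more counts added, the strand and filtered TMM factors moved them by less than their counting error. Pairs changed past 2-fold numbered 10 of 73 at 100 or more counts and 9 of 61 at most 1 kb apart, against 16 of 95, and Mir222 and Mir221 ranked 3 or 4 under each alternative. Genes past 2-fold numbered 253 of the 750 with a count in either library, against 56 of the 389 with 10 or more counts in mean, of which 137 passed 1.5-fold. For X-linked genes other than the pair the same numbers were 12 of 48, 5 of 33 and 10, and for the list linked to KIT or CDKN1B 2 passed 1.5-fold, against 1 past 2-fold. No paired analysis was possible because the series holds 1 group. The counting error of Mir222 was small beside its difference between the libraries, but Mir222 was chosen for that difference. The error also takes reads as independent, which reads without molecular identifiers are not. The 2 animals do not show how Mir222 varies between mice.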
